A study of Mus musculus with 8 samples.

Results

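The 10 genes described here encode AP-1 and immediate early transcription factors: Fos, Fosb and Fosl2 of the Fos family, Jun, Junb and Jund of the Jun family, the related factor Atf3, the zinc finger factor Egr1 and the Kruppel-like factors Klf2 and Klf4. They are taken by symbol. Each of the 10 symbols matched a single row, with the same gene identifier, in every count table, out of 27514 genes that the tables shared. The tables hold single-cell RNA sequencing of thymic epithelial cells (TEC), the stromal cells that line the thymic cortex (cTEC) and medulla (mTEC) and guide the development of T cells.

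AP-1 is a dimer of basic leucine zipper proteins. Jun proteins pair with themselves, with Fos proteins or with ATF proteins, and Fos proteins need a Jun partner to bind DNA. Immediate early genes such as Fos, Egr1 and Atf3 are transcribed within minutes of a growth factor signal, a cytokine or a stress, from factors already present in the cell, and their RNAs decay quickly. Warm enzymatic digestion of a tissue is a known inducer of these genes.

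All 8 libraries came from thymus of mice of strain C57 B6 (CD45.2) and genotype WT, and every group carried this background and no other allele. At E13.5 all TEC were sorted together as DAPI- EpCAM+ CD45- cells (1 library). For the E15.5, E17.5 and newborn (NB) libraries cTEC were sorted as DAPI- EpCAM+ CD45- Ly51+ UEA-1- (1 library each). The adult groups were cTEC of the same profile (2 libraries) and adult mTEC (DAPI- EpCAM+ CD45- Ly51- UEA-1+, 2 libraries). By the methods of the study, newborn mice were 0 to 2 days old, adult mice 4 to 6 weeks, and either sex was used. The libraries fall into 2 data sets of the study. E17.5 and replicate 2 of both adult groups belong to data set 2, and the other 5 libraries to data set 1. The replicate numbers are only names.

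The preparation of the cells differed with age. Embryonic thymi were dissociated with trypsin and EDTA for 7 to 10 minutes at 37 degrees C. Newborn and adult thymi were shaken for 40 minutes at 37 degrees C with Liberase and DNase and were then enriched for stromal cells on Percoll. Birth, the enzyme, the time at 37 degrees C and the Percoll step changed together, and their parts in any difference between fetal and postnatal libraries cannot be told apart. Adult cTEC and adult mTEC were prepared in the same way.

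After limits on mitochondrial and detected genes and removal of clusters named parathyroid-like, thyroid-like or thymocyte-like, 492 to 8350 cells were kept per library, with a median of 3952 to 11386 UMIs (unique molecular identifiers, one per captured RNA molecule) per cell and 2165314 to 90103548 UMIs in all. The markers of the sorted lineages separated the libraries, with exceptions in adult cTEC. Psmb11, the cortical proteasome subunit, was at 250.5 CPM (UMIs per 1000000 UMIs of the library) in E13.5 TEC, 669.9 to 1474 CPM in the cTEC libraries and 3.85 and 8.57 CPM in the mTEC libraries, and Aire, the regulator of self-antigen expression in the medulla, was at 435 and 399 CPM in the mTEC libraries and at most 9.32 CPM elsewhere. The markers of mTEC I, the Ccl21a-expressing subset, summed to 9101 and 3062 CPM in adult cTEC and to 9726 and 4712 CPM in adult mTEC. In adult cTEC replicate 1 a cluster of 59 kept cells had Psmb11 at only 23.2 CPM, and the main cluster of 418 cells had Ccl21a at 6390 CPM beside Psmb11 at 773 CPM. Pairs of libraries shared 0 to 61 cell barcodes, at most 1.17% of the smaller library.

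The start regions of 4 of the factors are shown first to give the sequence just before their RNAs start, and were picked among those that hold the element marked. The sequences are RefSeq promoter sequence on build GRCm38.p6, from 140 bases before the annotated start to the base before it, 5′ to 3′ on the strand of the gene. Fos lies at chr12:85473750-85473889 on the + strand, Fosb at chr7:19310046-19310185 on the - strand, Junb at chr8:84978749-84978888 on the - strand and Atf3 at chr1:191183334-191183473 on the - strand. The RefSeq starts of Fosb and Junb do not coincide with the GENCODE starts of these genes, and the Atf3 window lies inside the longer GENCODE gene at chr1:191170296-191218039. Capitals mark the core of the cyclic AMP response element, TGACG or its reverse complement, which CREB and ATF proteins can bind.
Fos: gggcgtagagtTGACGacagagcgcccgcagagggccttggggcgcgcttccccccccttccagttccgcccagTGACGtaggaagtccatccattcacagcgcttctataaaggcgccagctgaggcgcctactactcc
Fosb: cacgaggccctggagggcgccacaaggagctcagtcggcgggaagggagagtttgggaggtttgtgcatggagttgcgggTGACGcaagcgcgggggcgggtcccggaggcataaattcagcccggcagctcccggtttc
Junb: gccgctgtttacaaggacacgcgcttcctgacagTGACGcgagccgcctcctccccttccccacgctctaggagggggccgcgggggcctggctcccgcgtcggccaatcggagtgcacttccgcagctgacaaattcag
Atf3: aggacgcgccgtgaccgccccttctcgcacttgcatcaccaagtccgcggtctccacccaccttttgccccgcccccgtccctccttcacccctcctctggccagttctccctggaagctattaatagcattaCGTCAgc

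The promoter table held 9 of the 10 members, all but Egr1. Over the 250 bases before the start, on both strands, the core TGACG was found in 6 of these 9 promoters (Fos, Fosb, Junb, Atf3, Klf2 and Klf4), not in those of Fosl2, Jun and Jund, and in 17.8% of all 32851 promoters in the table. In Fos it began 129 and 66 bases before the start, in Fosb 60, in Junb 106, in Atf3 7, in Klf2 241 and in Klf4 232 bases before it. The whole element TGACGTCA was found in 0 of the 9 and in 1.55% of all promoters, the AP-1 site TGANTCA in 0 of the 9 and in 6.75%, and the CArG box of serum response factor in 0 of the 9 and in 1.47%. The letters TATAAA were found in Fos, 33 bases before the start, in no other of the 9, and in 12.4% of all promoters. No TGANTCA holds a TGACG, while each TGACGTCA does. Sequence further upstream than these 250 bases was not searched, so elements there would be missed. These matches describe the sequence only, and their part in any change of level was not tested.

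The first comparison was across birth, with 3 fetal libraries (E13.5 TEC and the E15.5 and E17.5 cTEC) and 3 postnatal cTEC libraries (NB and both adult). The E13.5 library was sorted without a cortical marker and is not a cTEC library. Fos, Jun, Junb, Egr1 and Atf3 were higher after birth, by a log2 fold change of 4.13 to 11.28. In 9 of the 10 members every postnatal library was above every fetal library, against 13.2% of all genes tested. Jund was the exception. Within data set 1 alone all 10 members were higher in both postnatal libraries than in both fetal libraries, against 24.6% of all genes tested. Within data set 2, with 1 library a side, all 10 were higher after birth, against 51.4% of all genes tested.

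**Figure D1:**
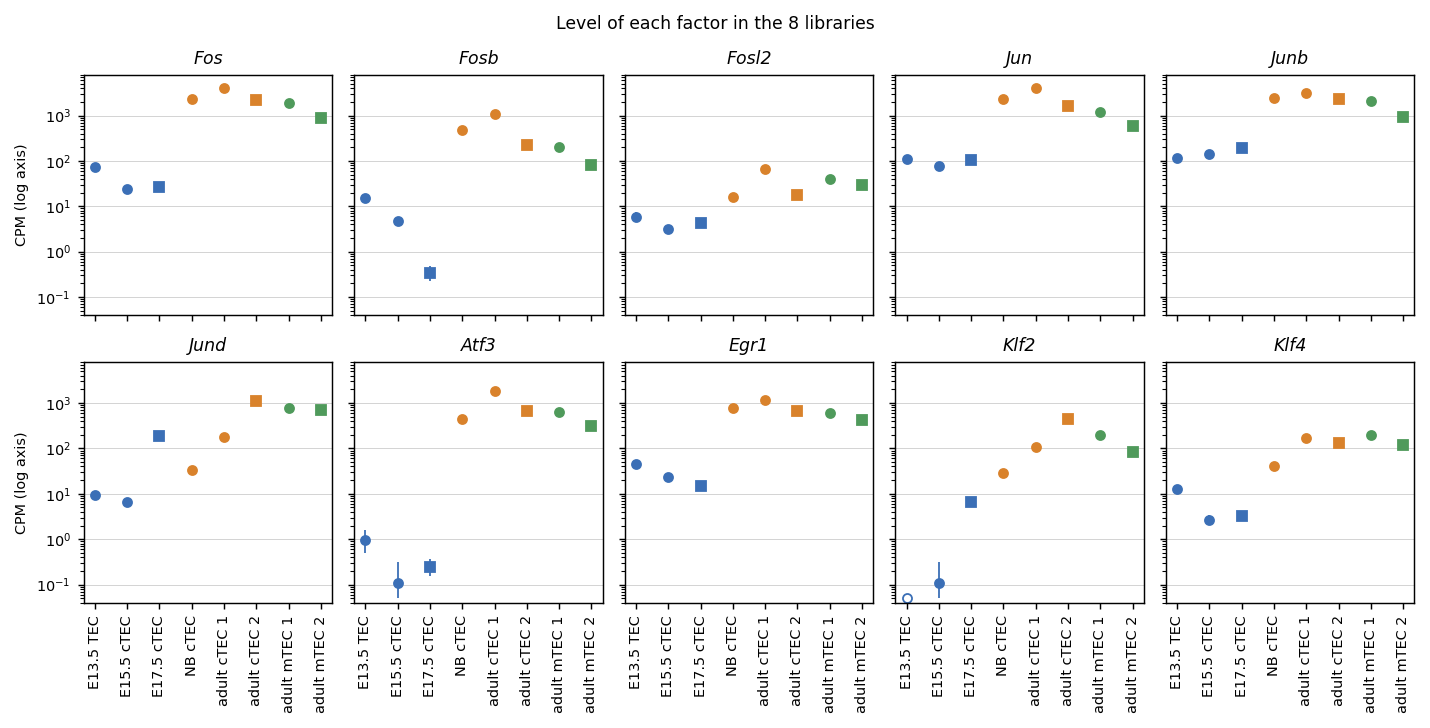
Level of each factor in each library in CPM on a log axis, as UMIs summed over the kept cells. Blue marks fetal, orange postnatal cortical and green medullary libraries, circles data set 1, squares data set 2, bars the exact 95% Poisson interval, and the open circle for Klf2 a count of 0. The orange points lie above the blue ones in 9 panels, and for Jund the E17.5 point at 187 CPM lies above NB at 33.9 and adult cTEC replicate 1 at 174.

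Of the Fos family, Fos was at 74.6 CPM in E13.5 TEC, 23.4 in E15.5 cTEC and 26.3 in E17.5 cTEC, and at 2342 in NB cTEC and 4036 and 2184 in the adult cTEC libraries. The lowest postnatal value was 29.3 times the highest fetal value, and the log2 fold change was 6.13 ± 0.57 (SE, edgeR quasi-likelihood test, Benjamini-Hochberg adjusted p = 0.0362). Fosb, which also pairs with Jun proteins, was at 15.6, 4.62 and 0.333 CPM in the same fetal order and at 490, 1083 and 220 CPM after birth. Its groups did not overlap either, but the change of 7.19 ± 0.95 missed the threshold (edgeR adjusted p = 0.0601). Fosl2 (Fra-2) was at 5.93, 3.13 and 4.28 CPM before and 15.9, 66.2 and 17.8 CPM after birth, with a change of 2.76 ± 0.62 (edgeR adjusted p = 0.130). In all 3 genes the groups did not overlap, and adult cTEC replicate 1 was the highest library.

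Of the Jun family, Jun was at 110, 75.5 and 103 CPM in the fetal libraries and at 2345, 4068 and 1659 CPM in the postnatal ones, a change of 4.73 ± 0.45 (edgeR adjusted p = 0.0362). Junb, another Jun protein of the AP-1 dimer, was at 117, 141 and 193 CPM before and 2473, 3171 and 2293 CPM after birth, a change of 4.13 ± 0.37 (edgeR adjusted p = 0.0362). Neither gene had overlapping groups. Jund was an exception. It was at 9.41 and 6.63 CPM in E13.5 and E15.5 but at 187 CPM in E17.5, and at 33.9 CPM in NB, 174 in adult cTEC replicate 1 and 1086 in replicate 2. The highest value before birth and the highest after it were those of data set 2. Within data set 1 Jund went from at most 9.41 to at least 33.9 CPM, within data set 2 from 187 to 1086 CPM, and the fit, which had data set as a term, gave 3.27 ± 0.66 (edgeR adjusted p = 0.112). For Jund at E17.5 the stage and the data set cannot be told apart, since E17.5 was in data set 2 only.

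Atf3, a stress-induced repressor and partner of Jun, had the largest change of the members. It was at 0.941 CPM in E13.5 (13 UMIs), 0.109 CPM in E15.5 (3 UMIs) and 0.244 CPM in E17.5 (22 UMIs), and at 435, 1837 and 683 CPM in NB and adult cTEC. The change was 11.28 ± 1.07 (edgeR adjusted p = 0.0362), and the lowest postnatal value was 462 times the highest fetal value. Egr1, which is induced through serum response factor, was at 45, 23.2 and 14.6 CPM before and 781, 1150 and 684 CPM after birth, a change of 5.05 ± 0.41 (edgeR adjusted p = 0.0362).

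Klf2, a factor known for quiescence and shear stress responses, was listed with 0 UMIs in E13.5, which allows up to 0.217 CPM by a floor of 3 counts, with 3 UMIs (0.109 CPM) in E15.5 and with 6.52 CPM in E17.5. After birth it was at 28.8, 105 and 456 CPM, and the change of 7.78 ± 1.09 missed the threshold (edgeR adjusted p = 0.0629). Klf4, a factor of epithelial differentiation, was at 13, 2.69 and 3.18 CPM before and 40.7, 172 and 131 CPM after birth, with a change of 4.28 ± 0.85 (edgeR adjusted p = 0.105). For both genes NB had the lowest of the postnatal values and the adult libraries the higher ones.

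In all, 5 of the 10 members passed the threshold as higher after birth and 0 as lower, against 0.091% and 0% of the 14279 genes tested. All 10 members had an unadjusted p under 0.05, as did 2786 genes. The median log2 fold change was 4.89 over the members and -0.01 over all genes tested. With data set 1 alone, 0 genes and 0 members passed in edgeR, with 1947 genes and 10 members at an unadjusted p under 0.05. In data set 2, with 1 library a side, no test was possible, and adult cTEC replicate 2 was above E17.5 by 83.0 times for Fos, 16.1 for Jun, 11.9 for Junb, 46.8 for Egr1, 5.80 for Jund and 4.17 for Fosl2.

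The calls needed nearly all libraries. No member passed in edgeR without E13.5, E15.5, E17.5, adult cTEC replicate 1 or adult cTEC replicate 2, each left out alone, with all 10 at an unadjusted p under 0.05 in each of these fits, and 10 passed without NB. With 1 library left out, the log2 fold change ran from 5.76 to 6.70 for Fos, 4.39 to 5.12 for Jun, 3.92 to 4.45 for Junb, 4.82 to 5.38 for Egr1 and 10.61 to 12.08 for Atf3. It ran from 6.29 to 8.09 for Fosb, 1.92 to 3.15 for Fosl2, 2.28 to 3.67 for Jund, 7.03 to 9.75 for Klf2 and 3.75 to 5.24 for Klf4. DESeq2 called all 10 members and 1703 genes. With 1 library per stage below the adult, and with no statement that the adult libraries came from separate animals, the spread behind these tests is that between libraries and may be technical. In sums over a library, more cells with a gene and more RNA per cell cannot be told apart, and the shares of cells are given below for that reason.

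**Figure D2:**
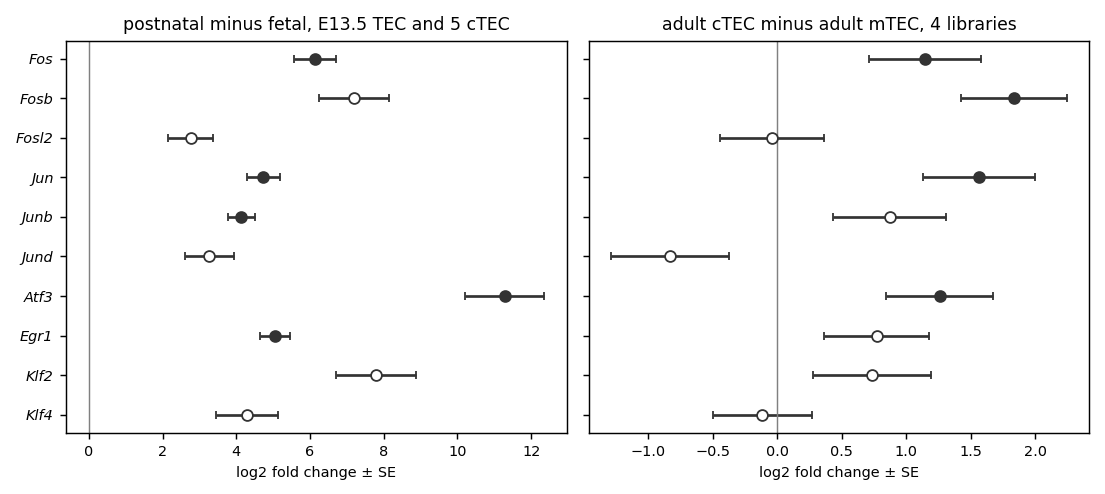
Log2 fold change with its SE for each member, from edgeR, on the left for postnatal minus fetal over E13.5 TEC and the 5 cTEC libraries and on the right for adult cTEC minus adult mTEC over 4 libraries. Filled points passed the adjusted threshold of 0.05, and the axes of the panels differ. On the left all 10 points lie to the right of 0, from 2.76 for Fosl2 to 11.28 for Atf3, and on the right they run from -0.83 for Jund to 1.83 for Fosb.

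The makeup of AP-1 RNA changed along with its amount. The summed CPM of the Fos family was 0.406, 0.139 and 0.0640 of that of the Jun family in E13.5, E15.5 and E17.5, and 0.587, 0.699 and 0.481 in NB and the adult cTEC libraries. It was 0.521 and 0.441 in the mTEC libraries. Fos family RNA was thus a smaller part of the AP-1 pool in each fetal library than in each postnatal cTEC library, and it was lowest at E17.5. With Jund left out of the Jun family the ratios were 0.423, 0.144 and 0.104 before and 0.591, 0.716 and 0.613 after birth, so the order did not rest on Jund. An exact two-sided permutation test of 3 libraries against 3 cannot go below p = 0.10, and none was used here. The UMIs are tags of 3′ ends, and the ratio compares libraries, not proteins.

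Other genes of the same response were read from the same fit. Of the other immediate early transcription factors, 0 of 20 tested passed, with a median log2 fold change of 2.62. Ier2 was at 101 to 167 CPM in the fetal and 754 to 914 CPM in the postnatal libraries, with a change of 2.71 ± 0.29 (edgeR adjusted p = 0.0565). Of the feedback inhibitors and RNA decay factors, 2 of 20 passed, with a median of 2.61. These were Zfp36, which destabilises the RNAs of immediate early genes and was at 26.8 to 49.5 CPM before and 413 to 645 CPM after birth (change 3.93 ± 0.38, edgeR adjusted p = 0.0377), and the stress gene Gadd45b, at 5.02 to 9.05 CPM before and 82.7 to 180 CPM after (4.03 ± 0.37, edgeR adjusted p = 0.0362). Of the secreted early products, 1 of 9 passed, the chemokine Cxcl1, at 0.328 to 0.868 CPM before and 106 to 193 CPM after birth (8.11 ± 0.51, edgeR adjusted p = 0.0290). No gene passed among 15 other AP-1 and bZIP partners (median 0.67), 19 upstream kinases and SRF or CREB factors (median 0.14), 9 other Kruppel-like factors (median 0.65) and 12 chaperones (median 0.79), with the median of all genes at -0.01. These medians hide unlike genes. Of the chaperones, the heat-induced Hspa1a (5.26 ± 1.0, edgeR adjusted p = 0.101) and Dnajb1 (4.13 ± 0.77, edgeR adjusted p = 0.0988) had estimates within the range of the members, and the mitochondrial Hspd1 was at -0.58 ± 0.42 (edgeR adjusted p = 0.475). Of the AP-1 partners, the Fos family gene Fosl1 was at 6.68 ± 0.77 (edgeR adjusted p = 0.0565), from 1 to 4 UMIs per fetal library. These 4 genes were named after their values were seen. The remaining 5 of the 13 genes that passed were Dnajb9, Socs1, Nfkbiz, Map3k8 and Gm26802, named here after their values were seen. Of these, Socs1 is a feedback regulator of cytokine signalling, and Map3k8 was not in the list of upstream kinases.

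Markers of other cells also differed between the fetal and postnatal libraries, and their part in the result was not tested. The 8 mesenchymal markers summed to 4.22 to 15 CPM before and 31.2 to 514 CPM after birth, of which Dcn made 27.5 to 502 CPM, while Col1a1 was at most 0.434 CPM and Pdgfra at most 0.217 CPM in these 6 libraries. The myeloid list summed to 1.24 to 13.2 against 7.35 to 196 CPM, the thymocyte list to 6.19 to 18.7 against 15.3 to 115 CPM and the endothelial list to 9.39 to 23.5 against 14.0 to 98.8 CPM. None of the markers tested in these lists passed. The thymocyte marker Ptprc was at 0 UMIs in E15.5 and in adult cTEC replicate 1, and Cd3e at 0 in E13.5 and E15.5. As lists, the markers tested were higher after birth. Their median log2 fold change was 3.37 for thymocyte, 2.90 for mesenchymal, 4.52 for myeloid and 4.72 for endothelial markers, against -0.01 for all genes. The list sums were taken after removal of the thymocyte-like cells (170 in NB), whose clusters were named by the same thymocyte list. In NB all 4 lists lay between 7.35 and 31.2 CPM. The mTEC I markers summed to 303 to 985 CPM before birth, 770 CPM in NB and 9101 and 3062 CPM in adult cTEC, and their part was not tested either.

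The shares of cells were compared after each cell was thinned to 2000 UMIs, since depth differed between libraries, and 0 to 123 cells per library with fewer UMIs were left out. Fos was found in 10.7% of E13.5 cells, 3.84% of E15.5 and 4.33% of E17.5 cells, and in 86.6% of NB (exact binomial 95% interval 85.4 to 87.7), 87.6% and 79.3% of adult cTEC and 78.2% and 66.8% of adult mTEC. Without thinning the Fos shares were 26.4%, 10.9%, 14.5%, 94.7%, 90.4%, 91.6%, 94.9% and 93.1% in the same order. A Fos UMI was thus found in most droplets after birth, and how many of these UMIs were free RNA was not tested. In cells with a Fos UMI, the mean was 1.35, 1.29 and 1.24 UMIs of 2000 in the fetal libraries and 5.45, 10.1 and 6.07 in NB and adult cTEC. These intervals, as all intervals here, cover counting error only.

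The Jun family was found in part of the fetal cells. Junb had a UMI in 20.6%, 22.8% and 29.6% of fetal cells in the order of age and in 95.4%, 92.5% and 90.8% of postnatal cortical cells, and Jun in 17.6%, 12.1% and 16.8% against 82.6%, 88.5% and 81.4%. Atf3 was found in 0.286% of E13.5 cells, in 0 of 3545 E15.5 cells and in 0.0363% of E17.5 cells, and in 41.6%, 75.2% and 54.0% of NB and adult cTEC. Fosb went from at most 2.69% to between 31.4% and 68.4%, and Egr1 from at most 8.34% to between 66.1% and 74.9%. Klf2 was found in 0%, 0.0282% and 1.04% of fetal cells and in 5.65%, 18.3% and 42.0% of postnatal cortical cells. Jund was found in 1.54%, 1.21% and 29.9% of fetal cells and in 6.67%, 27.4% and 78.5% of postnatal cortical cells, again with data set 2 above data set 1. Fosl2 was found in 0.621% to 1.2% of fetal and 3.44% to 9.37% of postnatal cortical cells, and Klf4 in 0.451% to 2.69% and 7.57% to 24.8%. Every cell type can express these genes, so no cell type in these libraries served as a blank for free RNA.

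Per cell, the number of members with a UMI was low before birth and high after. At 2000 UMIs the median was 0, 0 and 1 of 10 in E13.5, E15.5 and E17.5, 5 in NB, 6 in each adult cTEC library and 5 and 4 in the adult mTEC libraries. At least 5 members were found in 0.229%, 0% and 0.0484% of fetal cells, in 55.0% of NB cells, in 75.6% and 70.1% of adult cTEC and in 61.8% and 41.7% of adult mTEC. In the postnatal libraries 0.631% to 1.15% of cells had no UMI of any member, against 39.6% to 62.7% before birth.

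**Figure D3:**
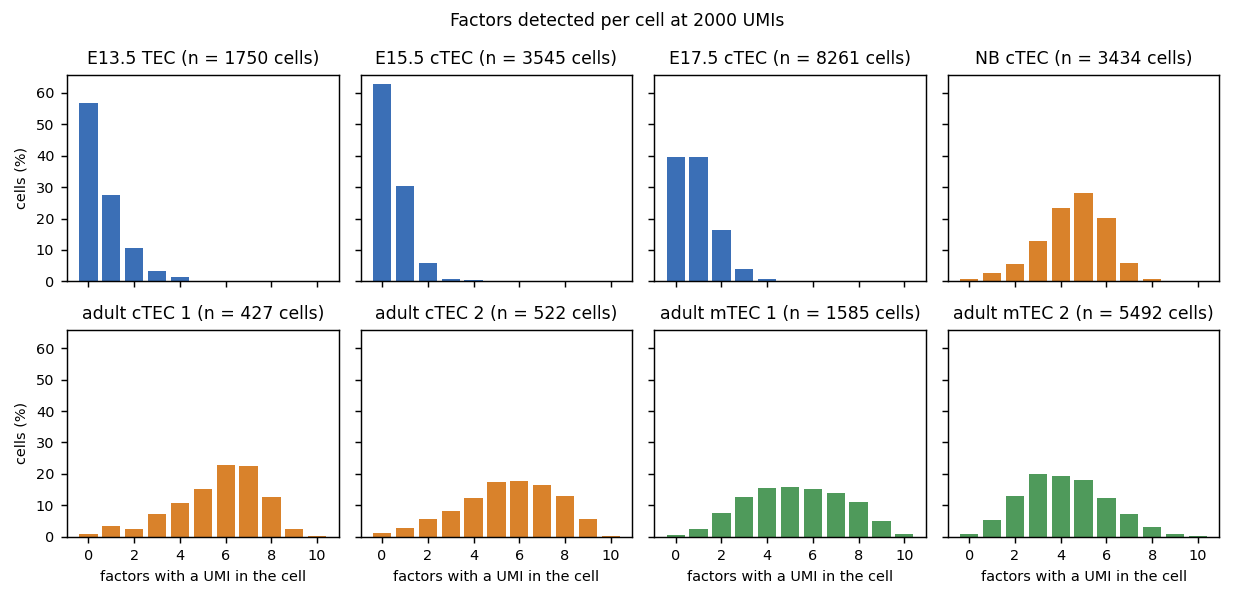
Percent of cells (vertical axis) by the number of the 10 factors with at least 1 UMI (horizontal axis) after thinning to 2000 UMIs, 1 panel per library. Fetal cells pile up at 0 and 1 factor, NB cells peak at 5, and the adult libraries spread from 0 to 10.

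After birth nearly all pairs of members were found together in the same cells more often than their single shares would give. A pair was read in a library where each gene was found in at least 50 cells, and phi, the correlation of the 2 yes-or-no values over cells, was taken as a description. In adult cTEC 36 of 36 pairs in each library and in adult mTEC 45 of 45 pairs in each library were found together more often than the product of their shares, and in NB 43 of 45. Median phi was 0.056 in NB, 0.148 and 0.186 in adult cTEC and 0.155 and 0.090 in adult mTEC. Pairs of the chaperone list, read in the same cells, had a median phi of 0.005 in NB and 0.007 to 0.028 in the adult libraries. Of these chaperone pairs, 36 of 55 in NB, 30 and 27 of 45 in adult cTEC and 45 and 41 of 66 in adult mTEC were above their product. All cells of a library share its preparation, and cells also differ in type.

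Fos with Jun was the closest pair in NB, where 75.0% of cells had both against 71.5% from the single shares (phi 0.276), and in adult cTEC replicate 1, where 81.7% had both against 77.5% (phi 0.399). In adult cTEC replicate 2 it was Junb with Egr1, in 64.8% against 60.0% of cells (phi 0.346). In both adult mTEC libraries it was Jun with Atf3, in 44.0% against 35.6% of cells in replicate 1 (phi 0.356) and in 25.1% against 19.7% in replicate 2 (phi 0.227). Before birth 4 members were found in at least 50 cells in E13.5 and in E15.5, and 8 in E17.5. All 6 pairs of Fos, Jun, Junb and Egr1 were above their product in E13.5 and in E15.5, where Fos with Jun had both in 4.11% of cells against 1.88% and in 0.959% against 0.465%, and in E17.5 18 of 28 pairs were above it. The E17.5 pairs had a median phi of 0.0045, below the 0.0064 of the chaperone pairs, of which 41 of 55 were above their product.

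**Figure D4:**
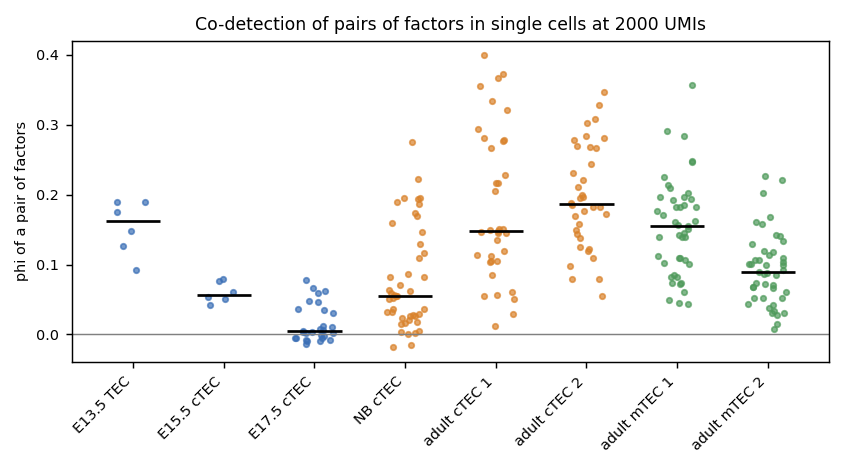
Phi of each pair of factors in each library (vertical axis, 1 point per pair with each gene in at least 50 cells) after thinning to 2000 UMIs, with the median as a black line. The highest medians are 0.186 in adult cTEC replicate 2 and 0.162 in E13.5, which has 6 pairs only, and E17.5 lies near 0 at 0.005.

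Within E13.5 the members were not even across clusters. Clusters were made without the genes of the gene lists. A cluster of 262 cells led by Krtdap, Krt5 and Krt19, keratinocyte-type genes, had Krt5 at 3832 CPM and Psmb11 at 65.0 CPM. Its members summed to 1019 CPM, with Fos at 267, Jun at 268, Junb at 256 and Egr1 at 125 CPM. The 2 other kept clusters, with 1119 and 339 cells, summed to 263 and 303 CPM, with Fos at 38.4 and 35.1 CPM. The cells counted here in all 3 clusters came from the 1 library of E13.5 and shared its preparation. In E15.5 and E17.5 the clusters lay closer together, with sums of 184 to 283 and 452 to 589 CPM. Clusters with fewer than 50 cells in a library were not summed. Among them were 41 E15.5 cells of the cluster led by Krtdap, Krt5 and Krt19. The E17.5 cluster rich in haemoglobin transcripts (1929 cells) had Fos at 52.6 and Jun at 170 CPM, above the 14.4 to 40.1 and 70.4 to 113 CPM of the other E17.5 clusters, and leaving it out changed no member's call.

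The NB clusters were alike in sums, from 8191 to 9616 CPM. Of adult cTEC replicate 2, 332 cells in a cluster led by Igfbp7, Dcn and Klf2 summed to 10501 CPM, with Fos at 2632 and Klf2 at 608 CPM and Psmb11 at 728 CPM. A cluster with 135 of its cells, otherwise made of 1795 E17.5 cells, had Psmb11 at 2819 CPM and summed to 6823 CPM, with Fos at 1050 and Klf2 at 261 CPM. Of these clusters the one with more Psmb11 had the lower sum of members, which was still above that of every fetal cluster summed. In adult cTEC replicate 1 a single cluster held 418 of the 507 cells past the limits and summed to 15698 CPM.

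The second comparison was between the adult lineages, which were prepared alike. Fosb, Jun, Atf3 and Fos were higher in adult cTEC than in adult mTEC by log2 fold changes of 1.14 to 1.83. In 6 of the 10 members (Fos, Fosb, Jun, Junb, Atf3 and Egr1) both cTEC libraries were above both mTEC libraries, against 30.3% of the genes tested. Jund, Klf2, Klf4 and Fosl2 did not separate the lineages. Depth differed between the lineages too, with medians of 3952 and 7062 UMIs per cell in cTEC and 9499 and 11386 in mTEC. The members summed to 15864 and 9415 CPM in cTEC and to 7779 and 4171 CPM in mTEC, the reverse order. The part of depth in the lineage difference was not tested.

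Fosb was at 1083 and 220 CPM in adult cTEC and 206 and 82.7 CPM in adult mTEC, replicates 1 and 2 in turn, a change of 1.83 ± 0.41 (edgeR adjusted p = 6.48e-05). Jun was at 4068 and 1659 against 1171 and 600 CPM (1.56 ± 0.44, edgeR adjusted p = 0.00184) and Atf3 at 1837 and 683 against 643 and 309 CPM (1.26 ± 0.41, edgeR adjusted p = 0.00987). Fos was at 4036 and 2184 against 1860 and 881 CPM (1.14 ± 0.44, edgeR adjusted p = 0.0291). For these 4 genes replicate 1 was the higher library in both lineages, by 1.85 to 4.93 times, so the cTEC library of data set 2 and the mTEC library of data set 1 were the nearest pair across the lineages.

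Junb was at 3171 and 2293 against 2097 and 942 CPM (0.87, edgeR adjusted p = 0.111) and Egr1 at 1150 and 684 against 593 and 414 CPM (0.77, edgeR adjusted p = 0.134). Klf4 was at 172 and 131 against 198 and 122 CPM (-0.11, edgeR adjusted p = 0.860) and Fosl2 at 66.2 and 17.8 against 40 and 28.8 CPM (-0.04, edgeR adjusted p = 0.954). Jund was at 174 and 1086 CPM in cTEC but at 774 and 709 CPM in mTEC (-0.83, edgeR adjusted p = 0.156), and Klf2 at 105 and 456 CPM in cTEC but 197 and 82.1 CPM in mTEC (0.73, edgeR adjusted p = 0.216). Jund, Klf2, Klf4 and Fosl2 had opposite signs in the 2 data sets.

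Of the members, 4 of 10 passed as higher and 0 as lower in adult cTEC, against 11.7% and 22% of the 15624 genes tested. The median log2 fold change was 0.82 over the members and -0.14 over all genes. The calls depended on the data set term, without which no member passed in edgeR (2 at an unadjusted p under 0.05). Leaving out 1 library also meant dropping the term, so these fits changed both choices at once, and the lone library of its lineage was taken to vary like the others. No member passed without adult cTEC replicate 1 (2 unadjusted) or without adult mTEC replicate 2 (0 unadjusted), Fosb alone without adult mTEC replicate 1, and Jund alone, as lower in cTEC, without adult cTEC replicate 2.

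Beside the members, 3 of 21 other immediate early factors were higher and 4 lower in adult cTEC. Nr4a1, an orphan nuclear receptor, was at 181 and 96.3 against 55.5 and 25.1 CPM (1.76 ± 0.39, edgeR adjusted p = 5.13e-05), and Ier5 at 83.4 and 81.2 against 359 and 243 CPM (-1.91 ± 0.40, edgeR adjusted p = 1.78e-05). Of the feedback and RNA decay list 6 of 20 were higher and 3 lower, with Ier3 higher (1.81 ± 0.40) and Gadd45b lower (-1.88 ± 0.41). Of the secreted products 3 of 13 were higher, among them Cyr61 at 653 and 278 against 99.9 and 29.0 CPM, and 4 lower, among them the chemokine Cxcl2 at 30.3 and 16.6 against 378 and 331 CPM. Of the other AP-1 and bZIP partners 5 of 15 were higher (Atf2, 1.98 ± 0.40) and 3 lower (Batf3, -3.79 ± 0.63). The other Kruppel-like factors split 3 higher, led by Klf15 (5.73 ± 0.52), and 3 lower of 9, the kinases and SRF or CREB factors 1 and 1 of 19, and the chaperones 2 and 2 of 12, with Dnajb1 higher (2.0 ± 0.43) and Hspb1 lower (-1.09 ± 0.40). Of all genes tested, 11.7% were higher and 22% lower, and nothing particular to these lists is read from the counts. The mesenchymal list, mostly Dcn, summed to 514 and 329 CPM in cTEC and 133 and 97.4 CPM in mTEC, and the myeloid list to 196 and 33.2 against 478 and 600 CPM. The mTEC I list, whose like-named clusters had the highest sums of the members within mTEC, was at 9101 and 3062 CPM in cTEC and 9726 and 4712 CPM in mTEC. The part of these lists in the result was not tested.

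Within the adult mTEC libraries the members differed between clusters, given here as a description with no test. Cells of 1 library shared their preparation. In replicate 1 the 2 clusters called mTEC I-like, from markers such as Ccl21a and Krt5 of the chemokine-producing medulla, had 323 and 148 cells and members summing to 15603 and 15897 CPM. Next was a cluster led by Wfdc18 and Igfbp5 (147 cells), which held no name, at 11358 CPM. The mTEC II-like cluster, by markers such as Aire (324 cells), summed to 4450 CPM. The mTEC III-like cluster, by terminal keratins and Spink5 (136 cells), summed to 7433 CPM, and a cluster led by cell cycle genes (132 cells) to 4545 CPM. In replicate 2 the mTEC I-like cluster (676 cells) was again the highest, at 10208 CPM, with the mTEC III-like cluster (310 cells) at 6946, the tuft-like cluster (151 cells) at 4256 and a cell cycle cluster (854 cells) at 3267 CPM. The lowest cluster, led by Tnni1 and Prph (793 cells), summed to 2799 CPM, 3.65 times below the highest. In replicate 1 the range was 3.57 times.

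The members did not share these differences evenly. In replicate 1 Atf3 ran from 125 to 1885 CPM between clusters, Jun from 399 to 2903, Fos from 816 to 4717 and Klf2 from 47.3 to 612 CPM, while Junb ran only from 1607 to 3130 and Egr1 from 379 to 1008 CPM. In replicate 2 Jun ran from 272 to 2165 and Atf3 from 121 to 1085 CPM. There Fos, Jun, Junb, Atf3, Egr1 and Klf2 were highest in the mTEC I-like cluster. Jund, Fosb and Fosl2 were highest in a cluster of 100 cells led by Car8, at 1546, 398 and 133 CPM, and Jund was at 1461 CPM in the tuft-like cluster, where Fos was at 518 CPM. Another cluster of replicate 2, led by Ccl21a (513 cells), held no name and summed to 6292 CPM. Klf4 was highest in the mTEC III-like cluster of replicate 2, at 473 CPM, where Fosl2 was at 118 CPM. Depth differed between the clusters too. In replicate 1 the mTEC I-like clusters had medians of 7020 and 6342 UMIs per cell, against 10748 in the mTEC II-like cluster. In replicate 2 the mTEC I-like median was 7691. Of the other clusters, the mTEC III-like, tuft-like and Car8 clusters had fewer UMIs, at 6832, 7335 and 5565, and all the rest had more, up to 17809 in the cell cycle cluster and with 13923 in the cluster of the lowest sum. The part of depth in the differences was not tested.

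**Figure D5:**
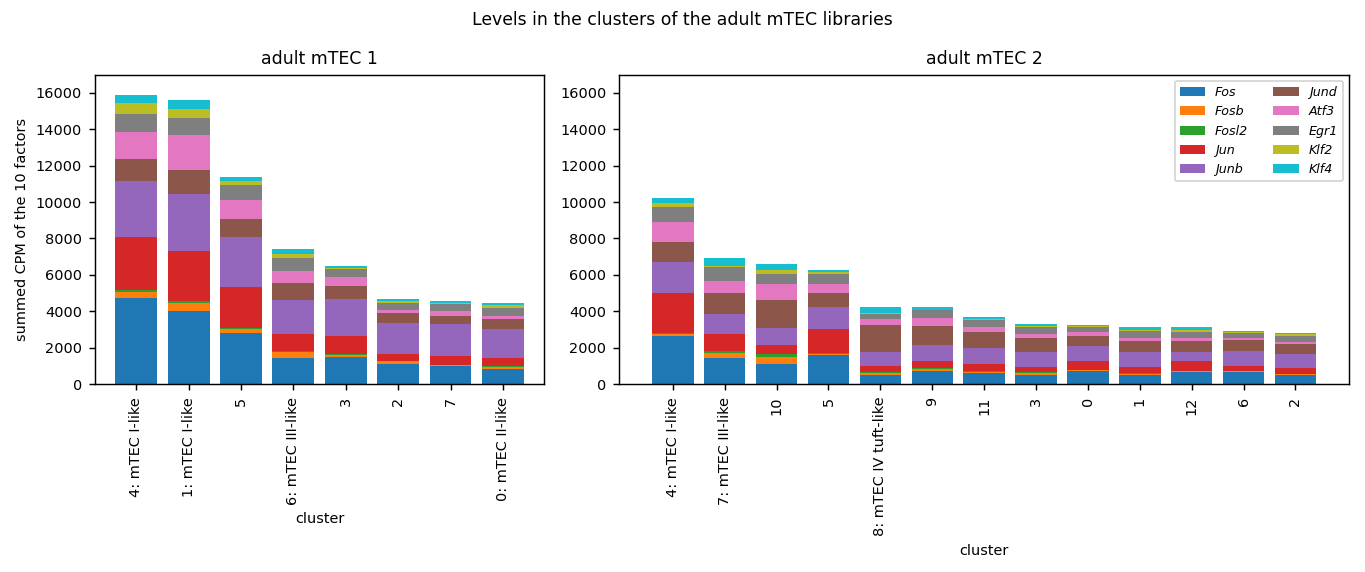
Summed CPM of the 10 factors (vertical axis, stacked by factor) in each cluster of the adult mTEC libraries, ordered by the sum within each library, with names where the markers gave one. The mTEC I-like clusters are highest in both libraries, at 15897 and 15603 CPM in replicate 1 and 10208 CPM in replicate 2.

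The genes most like 3 of the members in level were found by Pearson's correlation of log2(CPM + 10) over the 8 libraries and 18672 genes, as a description. For Fos they were Ier2 (r = 0.998), Coq10b (0.980), Clk1 (0.978), Emc7 (0.976) and Egr2 (0.973). For Klf2 they were Sdc2 (0.983), Dgka (0.981), Sit1 (0.978), Gfra4 (0.978) and Atg3 (0.977), and for Jund Rtn4 (0.989), Lamp1 (0.985), Cited2 (0.984), Zfand5 (0.980) and Adora2a (0.969). The genes like Jund shared its higher level at E17.5 than at NB. Lamp1, for instance, was at 38.0, 33.0, 137, 43.6, 95 and 227 CPM in E13.5 TEC and the cTEC libraries in order of age and at 254 and 235 CPM in mTEC. The 8 libraries share 2 data sets and a preparation on each side of birth.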

How the data were processed

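Single cells of 8 libraries were captured on the Chromium 3′ v2 platform and sequenced on a NextSeq. The deposited files hold UMI counts per gene and cell, made by the authors with Cell Ranger 2.0.1, STAR 2.5.1b and bcl2fastq 2.17 on mm10 per the labels, while in data set 2 the file headers give version 3.0.1. UMIs count molecules once, so PCR copies do not add to a level, and tags come from 3′ ends.

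Upper limits of 5% mitochondrial UMIs and 5000 detected genes per cell were applied. No doublet caller was run, and the gene limit was the only guard. Cells of each data set were clustered (leidenalg 0.10.2, 2000 variable genes, 20 components, resolution 0.8) without the listed genes, and parathyroid-like, thyroid-like and thymocyte-like clusters were removed. The haemoglobin-rich cluster of E17.5 was kept, a choice made after seeing the data. Adult mTEC libraries were clustered again, each alone. CPM are UMIs summed over kept cells, per 1000000 UMIs.

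Summed counts were tested with edgeR 4.0.16 (TMM, filterByExpr, quasi-likelihood, data set as a term, Benjamini-Hochberg adjustment, threshold 0.05), as the unit allowed. SE is the log2 fold change over the root of F. Adult cTEC against mTEC had 1 residual degree of freedom. DESeq2 1.42.0 and the other alternatives are given in the closing section. Intervals are exact at 95% and cover counting error only, and the floor of a count of 0 is 3 counts. Pairs needed 50 cells with each gene. Named genes were, beside the members, up to 3 per direction of each list among those that passed with an average log2 CPM above 3, and the 5 genes most like Fos, Klf2 and Jund. The scripts were tested on simulated data. The members and lists were chosen with earlier results of these data known. Cebpd was not analysed here.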

Additional observations from a re-analysis of the deposited data

Results flagged for a closer look

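For 4 members the difference between adult cTEC and adult mTEC had opposite signs in the 2 data sets, each with 1 library a side, and the difference between the data sets was not tested. On the log2(CPM + 10) scale, adult cTEC minus adult mTEC was -2.09 in data set 1 and 0.61 in data set 2 for Jund, -0.85 and 2.34 for Klf2, 0.61 and -0.48 for Fosl2, and -0.19 and 0.10 for Klf4.

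The cells left out of the comparisons also held the members. In E13.5 the members summed to 482 CPM in the 124 parathyroid-like cells and 463 CPM in the 103 thyroid-like cells, beside 391 CPM in the kept cells. In NB they summed to 8083 CPM in the 170 thymocyte-like cells, beside 8985 CPM in the kept cells, and these thymocyte-like cells also had Psmb11 at 1663 CPM.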

How the results depend on the processing

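For postnatal against fetal, no member changed direction under any alternative. The 13 genes and 5 members called became 518 and 10 with no filter on low counts, 1703 and 10 with the DESeq2 test, and 1170 and 8 with a slope per stage rank. They were 37 genes with no data set term, 53 with all 8 libraries in 1 fit, and 0 and 0 with data set 1 only, which was chosen after seeing the data. Leaving out 1 library gave 0 to 611 genes and 0 to 10 members, with 1585 to 2082 genes at an unadjusted p under 0.05 in the fits without E13.5, E15.5, E17.5 or an adult cTEC library. The adjusted p of Fos over all alternatives ran from 3.26e-30 (DESeq2) to 0.176. For adult cTEC against adult mTEC, the 5262 genes became 2568 with DESeq2 and 3176 with all 8 libraries in 1 fit, and 1259 to 2874 with 1 library left out. The 4 members called became 3 with no filter on low counts, where Fos was lost (edgeR adjusted p = 0.130), 5 with DESeq2, which added Egr1 (adjusted p = 0.0496), 0 with no data set term (2 at an unadjusted p under 0.05), 0 with all 8 libraries (1 unadjusted), and 0 to 1 with 1 library left out, where the data set term was dropped. Fosl2 turned to 0.16 without the data set term and Klf2 to -0.83 with all 8 libraries. With 1 library left out, the log2 fold change ran from -0.93 to 0.76 for Fosl2, -2.27 to 0.56 for Jund, -0.58 to 1.73 for Klf2 and -0.46 to 0.12 for Klf4. For the 4 members called it ran from 0.66 to 1.60 for Fos, 0.63 to 2.74 for Fosb, 0.93 to 2.02 for Jun and 0.54 to 1.79 for Atf3. For Junb it ran from 0.31 to 1.33 and for Egr1 from 0.46 to 1.01. The cause of these changes was not tested. The labels give no replicate numbers, so no fit by replicate number was made. The data set term compares adult cTEC with adult mTEC within each data set, which holds 1 library of each. Of 207 postnatal pairs 205 were found together more often than the product of their shares at 2000 UMIs, 196 of 198 at 1000 and 204 of 207 at 3000. The mTEC I-like clusters stayed highest at resolutions 0.4 and 1.2. Depth limits the fetal values of Atf3, which rest on 3 to 22 UMIs. It also limits those of Klf2 in E13.5 and E15.5, on 0 and 3 UMIs, and that of Fosb in E17.5, on 30.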
